A study of Drosophila melanogaster with 10 samples.

Results

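The dpr, beat and side genes encode cell-surface and secreted immunoglobulin-domain proteins that neurons use to recognise one another. They were taken from the gene names of the count table: dpr followed by a digit, any name starting with DIP- or beat-, and side itself. The names gave 34 of 16727 genes, namely 19 dpr genes (dpr2 to dpr20), 14 beat genes, side, and 0 names starting with DIP-, because the table lists the DIP genes under older CG names. Expression was measured by sequencing of polyadenylated RNA from brains of wandering Drosophila melanogaster larvae in the last larval stage, pooled 25 to a library. The genotypes were 12xWT, labelled as having 12 wild-type repeats of the histone genes, and yw, labelled as having 200, a stock named for its yellow and white alleles. There were 3 libraries of 12xWT males, 3 of 12xWT females, 2 of yw males and 2 of yw females. How the 12 repeats are carried, and the larvae's age in hours, are not given in the sources used here. Each repeat number came with a single stock, so the effect of the repeats and of other differences between the stocks cannot be told apart.

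Dpr proteins (defective proboscis extension response) bind DIP proteins (Dpr-interacting proteins) across the gap between neighbouring neurons. Different neurons display different combinations, and these pairs help axons and dendrites find the right layer and synaptic partner, as in the optic lobe, the mushroom body and motor neurons. Beat (beaten path) proteins are receptors or secreted proteins that bind Side (sidestep) proteins. Side on the substrate guides motor axons that carry Beat-Ia, which then leave their bundle and enter the muscle field. In whole brains a lower level can mean fewer cells of a type or less RNA per cell, and these cannot be told apart here.

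Total counts were 52.02 to 79.92 M per library. Levels below are in CPM (counts for every 1 M that a library holds) or, between genes, in CPM per kb of exon (RPKM). The white gene w checked the genotype labels: it had 223.8 to 299.0 CPM in 12xWT libraries, against 0.0890 to 0.175 CPM in yw libraries. The sex labels fitted less well. The male-limited RNA roX2 had 35.7 to 48.0 CPM in 12xWT males and 7.34 to 15.1 CPM in 12xWT females, against 65.4 to 67.8 CPM in yw males and 0.0769 to 2.88 CPM in yw females. Summed over 7 genes of the Y chromosome, levels were 19.3 to 22.4 CPM in 12xWT males and 4.30 to 17.6 CPM in 12xWT females, against 0.105 to 0.260 CPM in yw males and at most 0.0356 CPM in yw females. By roX2, the libraries labelled 12xWT female therefore held male-limited RNA. The second yw female library held a lower amount (2.88 CPM, against 0.0769 CPM in the first) and was kept in all comparisons with yw females. The Y sum was low in yw males as well, so it differed by stock and is a weak check of sex. Among the libraries labelled 12xWT female, the second had the highest Y sum and the highest roX2 (17.6 and 15.1 CPM). The first had 4.60 and 7.34 CPM, and the third 4.30 and 9.29 CPM. The genotype and sex calls over all libraries are also given without those labelled 12xWT female. The genotype effect then compares 12xWT males with yw males, and the sex effect yw males with yw females. Neuronal markers were high in every library (8015 to 9282 CPM summed over 14 genes in 12xWT, 8896 to 9408 CPM in yw), and no marker on the lists of neuron, neuroblast or glia was at 0.

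Of the 34 genes, 33 had enough counts to be tested, with 437 to 16311 counts in every library. The spread within a group of genotype and sex was small, with a median coefficient of variation of 3.37% over the 33 genes (range 1.55% to 7.53%). The untested gene was beat-IIIa (FBgn0265607, chromosome 2L, 17131024 to 17173118, plus strand), which had 0 counts in all 10 libraries. All of its annotated exons lie inside CG34106, which also had 0 counts, and the authors' counting drops read pairs that fall in 2 genes. The zero therefore says nothing about whether beat-IIIa was expressed. Among the tested genes, dpr4 shared 15.7% of its exon bases with CR45056 on the opposite strand, and the counting used no strand. Read pairs on the shared bases are dropped under the same rule, so its level may be too low. The other 32 shared no exon with another gene.

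The genes are long. Their median span was 32.8 kb, against 1.89 kb for all genes in the table, and 22 of 34 (64.7%) spanned more than 20 kb, against 7.39% of all genes. The longest was dpr6 at 164.7 kb and the shortest dpr19 at 3.74 kb. They are spread over the genome, with 16 on chromosome 3R, 9 on 2L, 3 on 3L, 3 on X, 2 on 2R and 1 on chromosome 4.

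Per length, the genes were expressed at ordinary levels, with a median of 9.75 RPKM, against 9.82 RPKM for all tested genes. The range was 20.4-fold. The top of the dpr family was dpr7, the only one on chromosome 4, with 74.5 ± 2.38 RPKM in 12xWT and 72.5 ± 3.43 RPKM in yw (SD, n = 6 and 4). Next came dpr12, a partner of DIP-delta in the mushroom body, with 43.4 ± 0.778 RPKM in 12xWT and 43.0 ± 1.77 RPKM in yw. The lowest was dpr2, with 3.85 ± 0.230 RPKM in 12xWT and 3.27 ± 0.0735 RPKM in yw. Among the beat genes beat-IIa (31.6 ± 1.38 RPKM in 12xWT, 32.0 ± 0.775 RPKM in yw) and beat-VI (32.1 ± 1.43 RPKM in 12xWT, 30.1 ± 1.39 RPKM in yw) led, and their library values overlapped. The lowest detected beat gene was beat-IIIb, with 6.04 ± 0.169 RPKM in 12xWT and 6.17 ± 0.190 RPKM in yw. The gene side, whose protein Beat-Ia binds, had 9.47 ± 0.306 RPKM in 12xWT and 9.56 ± 0.299 RPKM in yw. These levels divide by the length of all annotated exons of a gene, so a gene with many unused exons is placed too low.

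**Figure D1:**
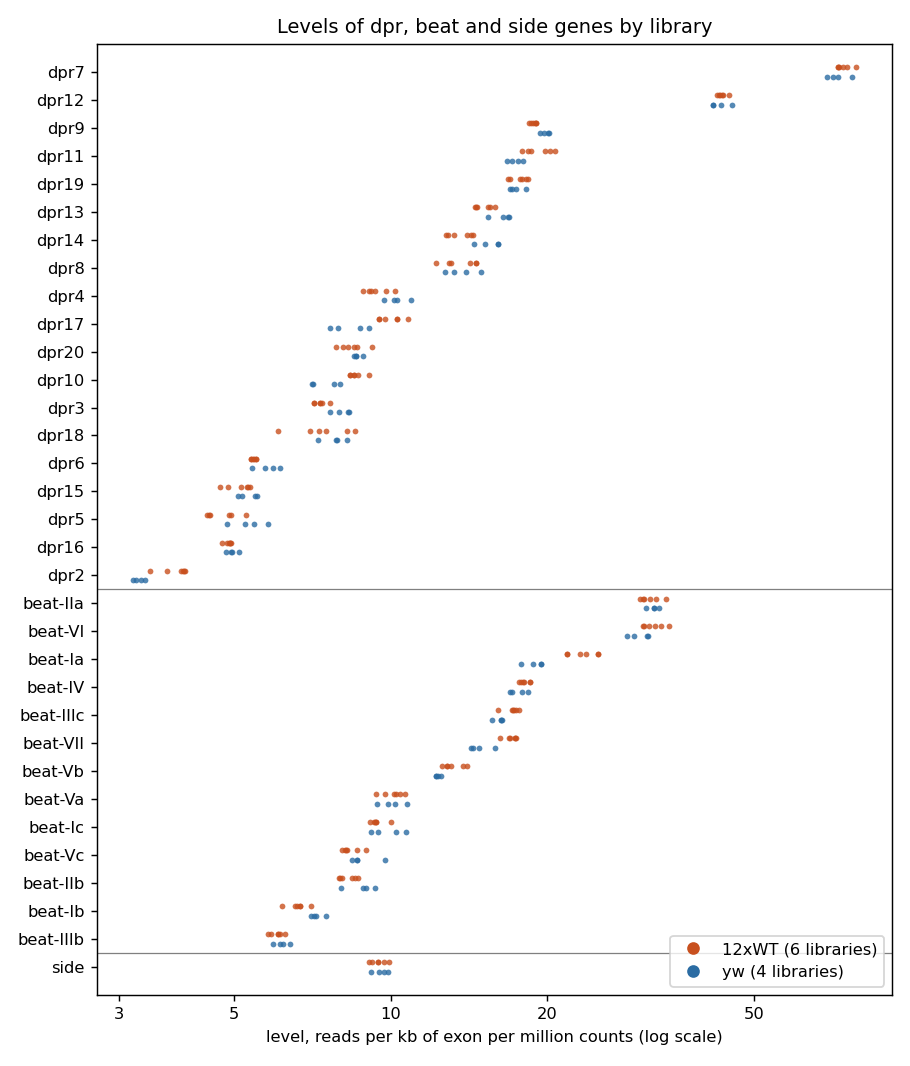
Level of each of the 33 detected genes in every library, in counts per kb of exon per 1 M counts on a log axis, with 12xWT libraries drawn above yw libraries and genes ordered within family. Levels run from 3.62 RPKM for dpr2 to 73.7 RPKM for dpr7 (means over all libraries), and for most genes the points of both genotypes overlap.

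The comparison of genotypes asked whether these recognition genes differ between larvae with few and many histone gene repeats. In 12xWT, 6 genes were higher and 8 lower, 14 of 33 (42.4%) by edgeR's quasi-likelihood test fitted with a term for sex (Benjamini-Hochberg adjusted p under 0.05 over all 11146 tested genes). Across all tested genes the same test called 33.4% in either direction, 17.0% higher and 16.4% lower. The changes were small: the median absolute log2 fold change of the 14 genes was 0.17, against 0.25 for all called genes, and none reached 2-fold. By family, 4 dpr genes were higher and 7 lower of 19, 2 beat genes were higher and 1 lower of 13 tested, and side did not pass the test. The median log2 fold change over the 33 genes was -0.04, against 0.00 over all tested genes. Library values of the genotypes did not overlap for 6 genes with 12xWT above yw and 2 with 12xWT below, where 15.1% of all tested genes lay above and 8.89% below (24.0% in all).

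The summed level of a family is weighted towards its abundant genes and does not show the changes of single genes. All dpr genes together had 958.8 ± 18.7 CPM in 12xWT and 958.3 ± 23.8 CPM in yw (SD, n = 6 and 4). The beat genes together had 692.9 ± 13.9 CPM in 12xWT and 660.0 ± 20.8 CPM in yw, with library ranges that overlapped narrowly (680.1 to 707.2 CPM in 12xWT, 638.3 to 680.5 CPM in yw).

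**Figure D2:**
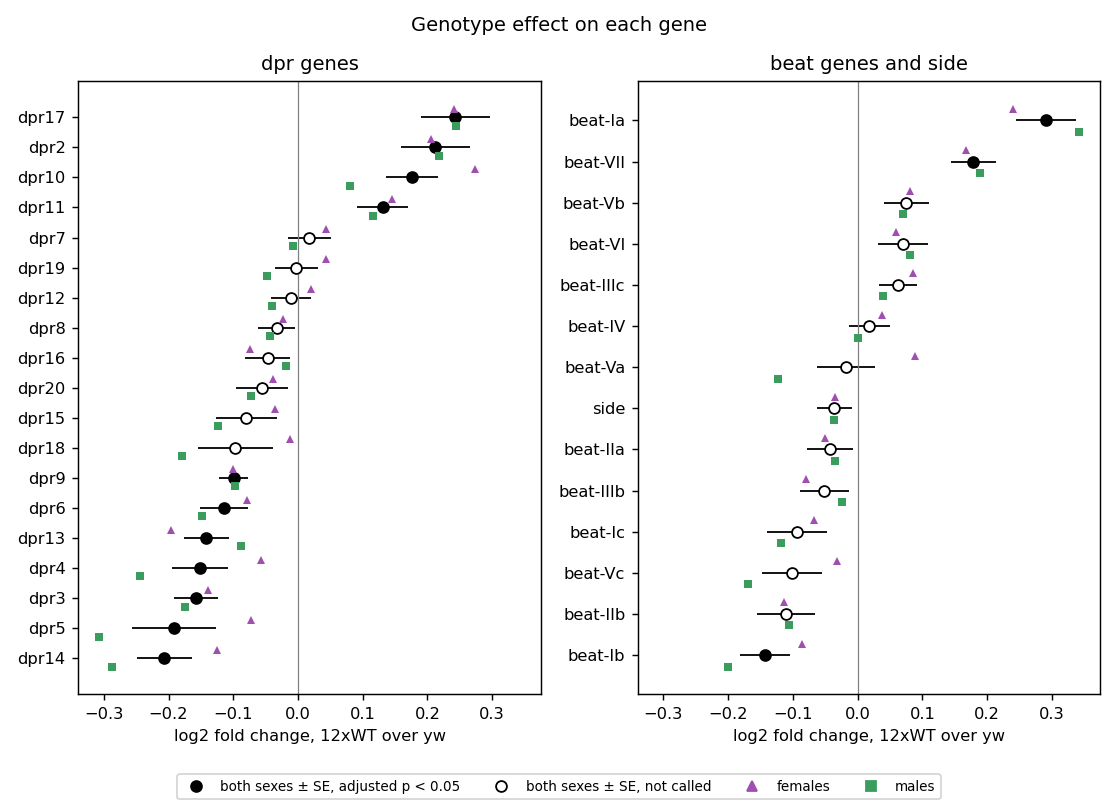
Log2 fold change of 12xWT over yw for each gene, with the standard error (bars), in both sexes together (circles, filled where the adjusted p is under 0.05), in females (triangles) and in males (squares). Filled circles run from -0.21 for dpr14 to 0.29 for beat-Ia. In the 14 called genes the triangle and the square lie on the same side of 0, which their choice from the same libraries makes likely.

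The dpr genes that were higher in 12xWT include binding partners of well-studied DIP proteins. For dpr17 (chromosome 3R, 12094876 to 12111420), whose protein binds DIP-gamma, 12xWT libraries ranged from 42.5 to 48.3 CPM with a median of 44.8, against 39.1, 34.1, 40.7 and 35.4 CPM in yw. Every 12xWT library lay above every yw library. This is a log2 fold change of 0.24 (SE 0.05, adjusted p = 0.00504 by edgeR with Benjamini-Hochberg adjustment). The lowest-expressed member dpr2 (chromosome 2L, 10917015 to 10964153) had 10.5 to 12.2 CPM in 12xWT with a median of 12.0, against 9.71, 10.04, 9.83 and 10.2 CPM in yw. Here too the genotypes did not overlap, although the second 12xWT female library came close to yw. On the log2 scale the difference was 0.21 (SE 0.05, adjusted p = 0.0101 by edgeR with Benjamini-Hochberg adjustment).

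The Dpr10 protein binds DIP-alpha, a pair needed by motor neurons and in the optic lobe. Its gene dpr10 (chromosome 3L, 10147454 to 10186108) had 29.6 to 32.2 CPM in 12xWT with a median of 30.2, against 25.1, 25.1, 28.4 and 27.6 CPM in yw. No library of one genotype reached the other, and the lowest values were those of the yw females. Its fitted log2 fold change was 0.18 (SE 0.04, adjusted p = 0.00587 by edgeR with Benjamini-Hochberg adjustment). Dpr11 marks a subtype of R7 photoreceptors in the fly eye and binds DIP-gamma. Its gene dpr11 (chromosome 3R, 6529169 to 6593330) had 83.3 to 96.4 CPM in 12xWT with a median of 89.5, against 83.6, 79.5, 81.6 and 77.8 CPM in yw. One 12xWT male library fell below the highest yw library, so the genotypes overlapped. The log2 fold change was 0.13 (SE 0.04, adjusted p = 0.0233 by edgeR with Benjamini-Hochberg adjustment).

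Of the 7 dpr genes that were lower in 12xWT, only dpr14 and dpr9 had library values that did not overlap. The X-linked dpr14 (chromosome X, 7903704 to 7908286) had 49.9 to 56.2 CPM in 12xWT with a median of 53.3, against 56.7, 59.4, 62.8 and 62.9 CPM in yw. The highest 12xWT library lay just below the lowest yw library, a female one. This is a log2 fold change of -0.21 (SE 0.04, adjusted p = 0.00336 by edgeR with Benjamini-Hochberg adjustment). For dpr9 (chromosome 3R, 15054930 to 15077206), whose protein binds DIP-beta, 12xWT libraries had 89.0 to 91.9 CPM with a median of 91.1, against 97.2, 95.4, 97.1 and 93.5 CPM in yw. The difference was small but the libraries of each genotype lay close together, with an SD of 1.17 CPM in 12xWT and 1.74 CPM in yw. On the log2 scale the difference was -0.10 (SE 0.02, adjusted p = 0.0058 by edgeR with Benjamini-Hochberg adjustment).

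The other 5 lower dpr genes overlapped between genotypes. For dpr3 (chromosome 2L, 2058790 to 2109878) the 12xWT libraries ranged from 22.5 to 24.2 CPM with a median of 23.1, against 24.1, 26.3, 26.1 and 25.1 CPM in yw. A single 12xWT library, the first female one, reached above the lowest yw value. Its fitted log2 fold change was -0.16 (SE 0.03, adjusted p = 0.00472 by edgeR with Benjamini-Hochberg adjustment). The level of dpr13 (chromosome 2R, 17975122 to 18007902) was 47.6 to 52.04 CPM in 12xWT with a median of 49.4, against 55.6, 55.2, 54.0 and 50.6 CPM in yw. The second yw male library was the low one and lay within the 12xWT range. The log2 fold change was -0.14 (SE 0.03, adjusted p = 0.0093 by edgeR with Benjamini-Hochberg adjustment).

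Dpr6 binds DIP-alpha as Dpr10 does. The gene dpr6 (chromosome 3L, 9974651 to 10139360) had 21.1 to 21.5 CPM in 12xWT with a median of 21.35, against 23.3, 21.2, 24.0 and 22.5 CPM in yw. The second yw female library lay inside the very narrow 12xWT range. This is a log2 fold change of -0.11 (SE 0.04, adjusted p = 0.0359 by edgeR with Benjamini-Hochberg adjustment). The closely spaced genes dpr4 and dpr5 lie on chromosome 3R, and both were called within males and not within females. Levels of dpr4 were 26.5 to 30.6 CPM in 12xWT with a median of 27.7, against 29.1, 30.4, 32.7 and 30.8 CPM in yw. Its log2 fold change was -0.15 (SE 0.04, adjusted p = 0.0191 by edgeR with Benjamini-Hochberg adjustment), with the shared exon bases named above. Levels of dpr5 were 8.27 to 9.82 CPM in 12xWT with a median of 8.73, against 9.04, 9.76, 10.2 and 10.8 CPM in yw. The genotypes overlapped, with the first 12xWT female library the highest of its genotype, and its log2 fold change was -0.19 (SE 0.07, adjusted p = 0.0413 by edgeR with Benjamini-Hochberg adjustment).

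The 8 dpr genes that did not pass the test had log2 fold changes from -0.10 for dpr18 to 0.02 for dpr7. They include dpr12 (-0.01, SE 0.03), dpr19 (0.00, SE 0.03) and dpr8 (-0.03, SE 0.03), and dpr15 (-0.08, SE 0.05) and dpr16 (-0.05, SE 0.04), whose proteins share the partner DIP-gamma with Dpr11 and Dpr17.

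Among the beat genes the largest change was in the founding member. The gene beat-Ia (FBgn0013433, chromosome 2L, 16049965 to 16081684) had 62.7 to 71.9 CPM in 12xWT with a median of 67.35, against 53.8, 55.8, 56.0 and 51.0 CPM in yw. All 12xWT libraries lay well above all yw libraries. On the log2 scale the difference was 0.29 (SE 0.05, adjusted p = 0.000628 by edgeR with Benjamini-Hochberg adjustment), a rise of 22.4%. The second beat gene that was higher, beat-VII (chromosome 3R, 26645282 to 26681966), had 99.5 to 107.1 CPM in 12xWT with a median of 105.4, against 97.5, 87.5, 90.9 and 88.3 CPM in yw. The genotypes did not overlap, and the first yw female library came closest. Its fitted log2 fold change was 0.18 (SE 0.03, adjusted p = 0.00226 by edgeR with Benjamini-Hochberg adjustment).

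The one lower beat gene was beat-Ib, which lies on chromosome 2L (15905134 to 15962435) in the same cluster as beat-Ia. It had 16.2 to 18.3 CPM in 12xWT with a median of 17.35, against 18.6, 18.3, 19.6 and 18.7 CPM in yw. The first 12xWT female library just exceeded the lowest yw library. The log2 fold change was -0.14 (SE 0.04, adjusted p = 0.0152 by edgeR with Benjamini-Hochberg adjustment). The other 10 tested beat genes did not pass, with log2 fold changes from -0.11 for beat-IIb to 0.08 for beat-Vb. In beat-Vb all 12xWT libraries (23.71 to 26.5 CPM) lay above all yw libraries (23.1 to 23.68 CPM), yet the adjusted p was 0.121 by edgeR with Benjamini-Hochberg adjustment. The gene side had 106.6 to 116.2 CPM in 12xWT with a median of 110.7, against 115.6, 111.2, 113.8 and 107.5 CPM in yw. These values overlapped throughout, and its log2 fold change was -0.04 (SE 0.03, adjusted p = 0.331 by edgeR with Benjamini-Hochberg adjustment).

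**Figure D3:**
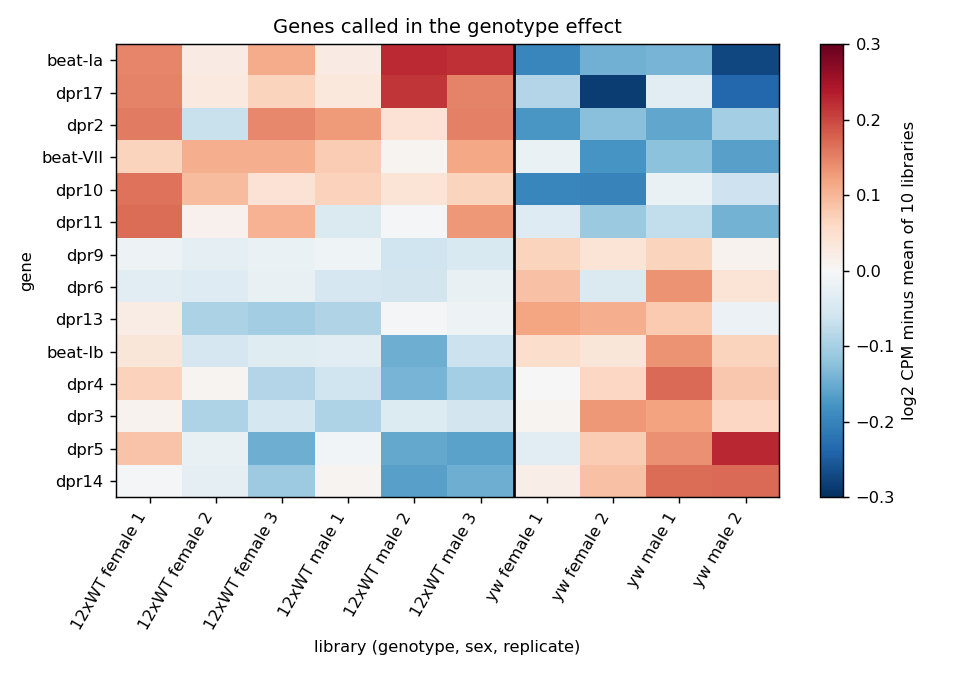
Colour map of the 14 called genes (rows, ordered by genotype effect) in each library (columns, 12xWT left of the line and yw right of it), as log2 CPM minus the mean of the 10 libraries. The top 6 rows, beat-Ia to dpr11, are mostly above the mean in 12xWT and below it in yw, and the bottom 8 rows show the opposite, with single libraries such as the first 12xWT female departing in dpr5 and dpr4.

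Markers of cell types moved with genotype as well. Of 14 neuron markers 1 was higher and 7 lower in 12xWT (57.1% called), of 8 neuroblast markers 0 and 5 (62.5%), and of 8 glia markers 1 and 5 (75.0%), where 33.4% of all tested genes were called, 16.4% lower. Without the libraries labelled 12xWT female the counts were 0 and 7 for neuron, 0 and 1 for neuroblast, and 1 and 3 for glia, where 19.5% of all tested genes were called. Summed glia markers had 895.1 to 1049 CPM in 12xWT and 992.7 to 1175 CPM in yw, which overlapped, whereas the 12xWT males alone (896.1 to 985.3 CPM) lay below all yw libraries. The neuroblast sum is 94.95% to 96.06% pros, a gene also active in neurons and not called. The other 7 neuroblast markers summed to 605.2 to 677.2 CPM in 12xWT and 647.7 to 696.6 CPM in yw, and dpn and klu, both among the called genes, did not overlap between genotypes. The gene dpn shares 59.3% of its exon bases with CR44275, which makes its value less certain. Ring gland markers were higher in all 12xWT libraries, with 225.2 to 498.4 CPM in 12xWT and 79.5 to 221.8 CPM in yw summed over 8 genes, of which 6 were called higher with all libraries and 0 without those labelled 12xWT female (median log2 fold change 1.10 with them, 1.12 without). Muscle markers had 72.1 to 118.0 CPM in 12xWT and 63.1 to 69.2 CPM in yw over 8 genes, with 1 called higher and 0 without the 12xWT female libraries. Eye disc markers (6 genes, 71.2 to 101.2 CPM in 12xWT, 75.3 to 87.1 CPM in yw) and fat body markers (6 genes, 39.4 to 507.9 CPM in 12xWT, 7.84 to 200.7 CPM in yw) had no gene called, and no marker on these lists was at 0. The part of these differences in the results above was not tested.

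Without the 3 libraries labelled 12xWT female, 2 genes were called higher and 5 lower, 21.2% of the 33. Here 12xWT males are compared with yw males, and the yw females no longer enter the estimate of the genotype effect. The share of all tested genes that were called fell as well, to 19.5% (10.3% higher and 9.24% lower of 10970). The genes that passed were beat-Ia (0.34), beat-VII (0.19), dpr3 (-0.17), beat-Ib (-0.20), dpr4 (-0.24), dpr14 (-0.29) and dpr5 (-0.31), given as log2 fold changes. The 7 that no longer passed had the same sign, though the male libraries had entered the fit that chose them. The log2 fold change of dpr17 was 0.25, of dpr2 0.22, of dpr11 0.12, of dpr10 0.08, of dpr13 -0.09, of dpr9 -0.10 and of dpr6 -0.15. The fold changes of dpr10 and dpr13 became smaller, and those of dpr4 and dpr5 larger, by more than 1.5 times on the log2 scale.

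Single libraries decided some calls. Leaving out the first yw male library left 4 genes called lower in 12xWT, with beat-Ib, dpr4, dpr5 and dpr6 no longer called. Without the second yw male library dpr4, dpr5, dpr6 and dpr11 were not called, and without the second yw female library dpr5 and dpr11 were not. Calls over all tested genes fell too, from 1890 higher and 1832 lower of 11146 with all libraries. They were 1453 and 1421 of 11490 without the first yw male library, and 1410 and 1276 of 11485 without the second. Without the second yw female library they were 1584 and 1476 of 11514. The call of dpr6 was lost in 8 and that of dpr5 in 7 of the 10 fits that leave out a library, whereas 9 of the 14 genes were called in all 10. These 9 were beat-Ia, beat-VII, dpr2, dpr10, dpr17, dpr3, dpr9, dpr13 and dpr14.

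Within each sex fewer libraries entered and fewer genes passed. Between 12xWT and yw females, 2 genes were higher (beat-Ia and dpr10) and 1 lower (dpr13), where 12.6% of all tested genes were called, 7.04% higher and 5.57% lower. Between 12xWT and yw males, 2 were higher (beat-Ia and beat-VII) and 5 lower (dpr3, beat-Ib, dpr5, dpr4 and dpr14), where 21.0% of all tested genes were called, 11.1% higher and 9.91% lower. This is the same contrast as the one without the libraries labelled 12xWT female, so the shared calls are not a second result. The sign was the same in both sexes for 28 of 33 genes, and the share over all tested genes was not counted. It was also the same for all 14 called in both sexes together. This is close to fixed in advance, because the same libraries chose those genes. The number called within a sex depended on single libraries. In males, 1 gene was lower without the first yw male library and 0 were higher without the second, and in females 0 were lower without either yw female library or without the second or the third 12xWT female library. Calls over all tested genes fell too. In males 1233 were higher and 1105 lower of 11146 with all libraries. Without the first yw male library 574 of 11490 were lower, and without the second 528 of 11485 were higher. In females 621 of 11146 were lower with all libraries. Without the first or the second yw female library the counts were 329 of 11502 or 289 of 11514. Without the second or the third 12xWT female library they were 487 of 11112 or 474 of 11115. In males no dpr gene was called higher, though dpr17 had a log2 fold change of 0.24 in males and 0.24 in females and dpr2 of 0.22 in males and 0.21 in females.

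The difference between the sexes was tested itself. The genotype effect differed between males and females in 0 genes by edgeR with Benjamini-Hochberg adjustment, where 0.00% of all tested genes were called. By DESeq2's Wald test it also differed in 0 of the 33, where 0.0987% of all tested genes were called (3 higher and 8 lower). At an unadjusted p under 0.05 there were 3, each with an adjusted p of 1 by edgeR with Benjamini-Hochberg adjustment. The log2 fold change of dpr10 was 0.08 in males and 0.27 in females (unadjusted p = 0.00705 in edgeR's interaction test). That of beat-Va was -0.12 in males and 0.09 in females (0.0115), and that of dpr4 -0.24 in males and -0.06 in females (0.0233). Beat-Va binds Side-VI.

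Several members sit beside one another in the genome, and a ratio of counts within a library does not depend on how libraries are scaled. For the 8 pairs of neighbouring tested members at most 100 kb apart, the ratio was compared between genotypes by an exact permutation test, two-sided, regrouping libraries of the same sex (100 regroupings, smallest possible p 0.01), with Benjamini-Hochberg adjustment over the 8 pairs. In 3 pairs the ratio differed with all libraries. Leaving out single libraries, which leaves fewer regroupings, the adjusted exact permutation p of these pairs was 0.0444 without any one 12xWT male library and above 0.05 without any other, up to 0.0889. In the beat-I cluster, the ratio of beat-Ic to beat-Ia counts, 8.26 kb apart, was 0.639 to 0.741 in 12xWT and 0.835 to 0.942 in yw. The log2 ratio was lower by 0.38 in 12xWT, written as a difference of -0.38 (exact permutation p = 0.01, adjusted 0.0267). The gene dpr6 lies 8.09 kb from dpr10, both encoding partners of DIP-alpha, and their ratio was 0.665 to 0.726 in 12xWT and 0.815 to 0.927 in yw (difference of log2 ratios -0.29, exact permutation p = 0.01, adjusted 0.0267). For dpr17 and dpr15, 27.4 kb apart and both encoding partners of DIP-gamma, the ratio was 2.30 to 2.81 in 12xWT and 1.83 to 2.21 in yw (difference 0.33, exact permutation p = 0.01, adjusted 0.0267).

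In none of these 3 pairs did the genotypes' ratios overlap. The remaining pairs were beat-Ib and beat-Ic, dpr5 and dpr4, beat-Vc and beat-Va, beat-Va and beat-Vb, and beat-IIb and beat-IIa. Their differences of log2 ratio ran from -0.09 to -0.04, with exact permutation p from 0.1 to 0.4. The pairs that differed were the ones in which 1 gene was called higher in 12xWT, so the ratios restate those calls without the library scaling. Within males alone, without the libraries labelled 12xWT female, the differences were -0.46 for beat-Ic to beat-Ia, -0.23 for dpr6 to dpr10 and 0.37 for dpr17 to dpr15. Too few regroupings remain there for an adjusted p under 0.05.

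**Figure D4:**
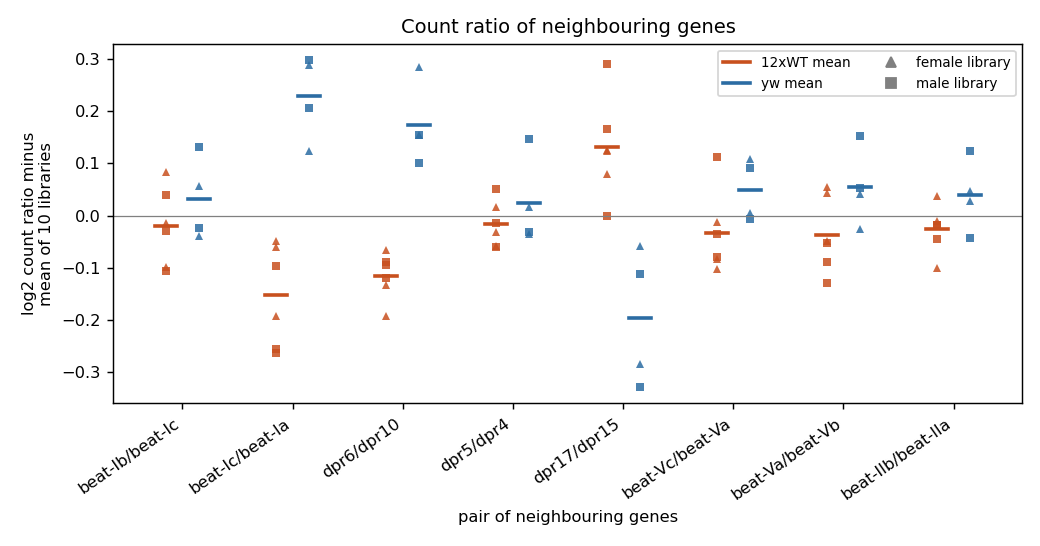
Log2 ratio of the counts of neighbouring genes in each library, minus the mean of the 10 libraries, for the 8 pairs, with 12xWT left of yw, females as triangles, males as squares and genotype means as bars. The genotypes separate for beat-Ic/beat-Ia, dpr6/dpr10 and dpr17/dpr15, and the points of the other 5 pairs overlap.

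The comparison of sexes, with genotype as covariate, called 0 of the 33 genes higher and 1 lower in males, where 1.68% of all tested genes were called, 0.637% higher and 1.04% lower. The gene was dpr8 (FBgn0052600, chromosome X, 14322226 to 14462351), whose protein binds DIP-beta. In 12xWT it had 64.8, 60.7 and 64.2 CPM in males, against 72.4, 72.2 and 70.3 CPM in females. In yw it had 65.6 and 62.9 CPM in males, against 74.1 and 69.1 CPM in females. The 5 male values all lay below the 5 female values, a separation that 2.43% of tested genes showed in either direction. This is a log2 fold change of -0.17 (SE 0.03, adjusted p = 0.0142 by edgeR with Benjamini-Hochberg adjustment). Within 12xWT it was -0.18 and within yw -0.16, neither called alone, where 0.0538% of tested genes were called within 12xWT and 0.807% within yw (edgeR, Benjamini-Hochberg adjusted p = 0.176 and 0.242). Leaving out the libraries labelled 12xWT female leaves the same contrast as within yw, fitted to fewer libraries. There it was -0.16, with an adjusted p of 0.38 by edgeR with Benjamini-Hochberg adjustment, where 0.447% of tested genes were called. Without the second yw male library dpr8 was not called either.

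The other X-linked members were not called. For dpr18 males averaged 18.7 ± 1.75 CPM and females 21.2 ± 1.05 CPM (SD, n = 5 each), with a log2 fold change of -0.19 (SE 0.06, adjusted p = 0.169 by edgeR with Benjamini-Hochberg adjustment). For dpr14 males averaged 56.5 ± 6.34 CPM and females 55.7 ± 2.76 CPM, a log2 fold change of 0.01 (SE 0.04). Over all 1883 tested X-linked genes the median log2 fold change was -0.05, and 51 were called higher and 108 lower in males, 8.44% of them. The 30 tested members off the X had log2 fold changes between -0.06 for dpr11 and 0.05 for dpr17, none called.

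**Figure D5:**
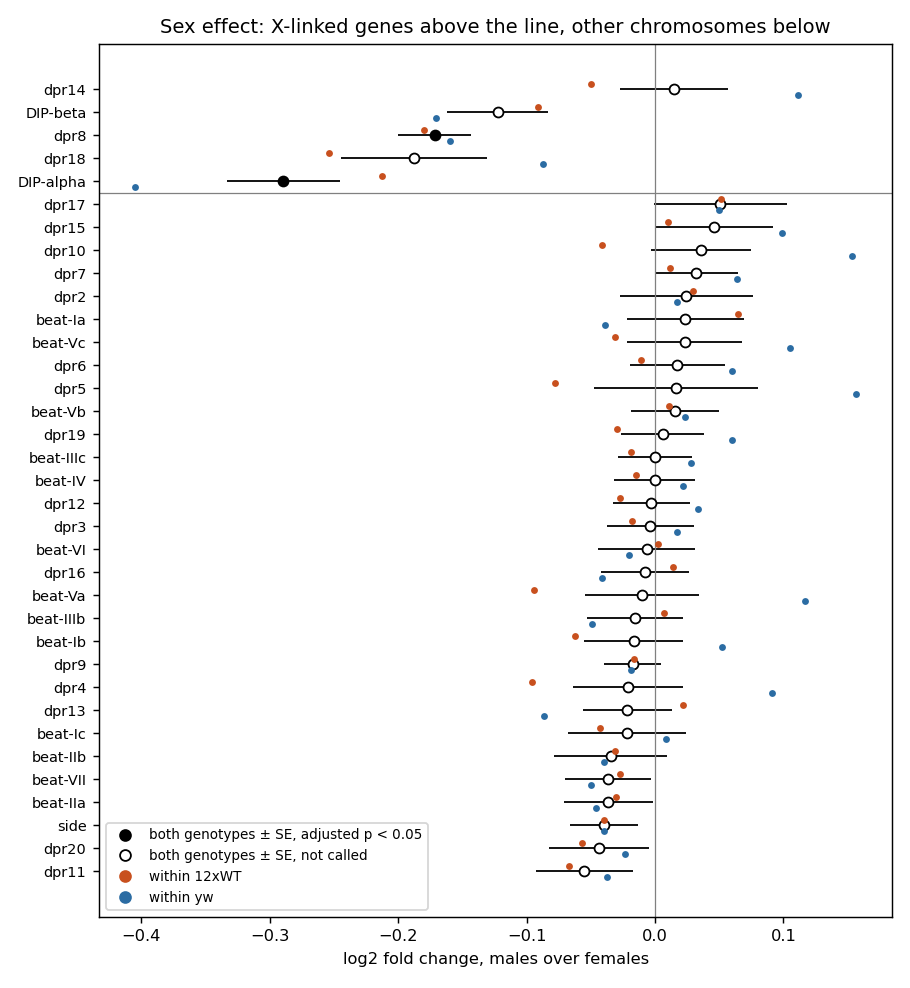
Log2 fold change of males over females for each gene with its standard error, X-linked genes above the horizontal line, with DIP-alpha and DIP-beta added for comparison, and the values within 12xWT (orange) and within yw (blue). The filled circles, dpr8 at -0.17 and DIP-alpha at -0.29, are the genes with an adjusted p under 0.05, and the circles of the genes off the X lie between -0.06 and 0.05.

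The DIP genes, the receptors that the Dpr proteins bind, were looked up under their CG names. They were added because of those names, with the count table already in hand. A further gene, DIP-lambda, matched 3 names and was not used. In all, 10 DIP genes were tested, and in 12xWT 1 was higher and 3 lower, a share of 40.0%, against 33.4% of all tested genes. Without the libraries labelled 12xWT female, 1 was higher and 2 lower (30.0%, against 19.5% of all tested genes). Their summed level was 343.8 ± 9.62 CPM in 12xWT and 345.9 ± 13.1 CPM in yw (SD, n = 6 and 4). DIP-gamma (CG14521), the partner of Dpr11, Dpr15, Dpr16 and Dpr17, had 32.3 to 36.4 CPM in 12xWT, against 36.9, 39.7, 42.0 and 38.2 CPM in yw. It shares 2.67% of its exon bases with CG11828. The genotypes did not overlap, and the log2 fold change was -0.21 (SE 0.04, adjusted p = 0.00304 by edgeR with Benjamini-Hochberg adjustment). Of its ligand genes, dpr17 and dpr11 were higher in 12xWT and dpr15 and dpr16 did not pass.

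DIP-kappa (CG31814, log2 fold change -0.18, edgeR, Benjamini-Hochberg adjusted p = 0.00457) and DIP-eta (CG14010, -0.16, adjusted p = 0.0016) were also lower in 12xWT, with no overlap between genotypes. Without the libraries labelled 12xWT female, DIP-gamma (-0.24) and DIP-kappa (-0.21) were still called and DIP-eta was not (-0.12, adjusted p = 0.093, same test). DIP-epsilon (CG42368) was higher, with 33.2 to 38.4 CPM in 12xWT against 32.9, 32.9, 32.0 and 30.3 CPM in yw, and a log2 fold change of 0.17 (SE 0.05, adjusted p = 0.0152 by edgeR with Benjamini-Hochberg adjustment), a call lost without the second yw male library and kept without the 12xWT female libraries (0.23). DIP-delta (CG34391), the partner of Dpr12, had a log2 fold change of 0.09 (adjusted p = 0.084, same test), and dpr12 itself of -0.01. DIP-beta (CG42343), the partner of Dpr8 and Dpr9, had 0.07 (adjusted p = 0.186, same test), while dpr9 was lower.

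DIP-alpha (CG32791, chromosome X, 3507245 to 3571649), which shares 2.94% of its exon bases with CG2875 and ppk8, differed by sex. In 12xWT it had 42.0, 40.8 and 43.8 CPM in males, against 48.6, 47.3 and 50.9 CPM in females. In yw it had 40.5 and 42.2 CPM in males, against 56.2 and 53.0 CPM in females. No male value reached a female value. On the log2 scale the difference was -0.29 (SE 0.04, adjusted p = 0.0135 by edgeR with Benjamini-Hochberg adjustment). Within yw alone it was -0.40 (adjusted p = 0.00965, same test) and within 12xWT -0.21, not called (adjusted p = 0.197, same test). Without the libraries labelled 12xWT female it was -0.41 (adjusted p = 0.0209, same test), which is again yw males against yw females and not a separate result. Its partner genes dpr6 and dpr10 showed no sex difference that passed (log2 fold changes 0.02 and 0.04). By genotype DIP-alpha did not pass with the sexes together (-0.09, adjusted p = 0.158, same test). It was called lower in 12xWT females (-0.18, adjusted p = 0.0413, same test) and was at 0.01 in males (adjusted p = 0.913, same test). The difference between the sexes itself was not called (unadjusted p = 0.0241, adjusted p = 1, edgeR's interaction test). Both the call in females and the sex difference within 12xWT use the libraries labelled 12xWT female, which held male-limited RNA. The part of that RNA in these values was not tested.

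A pair of dpr genes stood outside the name rule and were looked up in the same way. The gene dpr1, listed as dpr and named for the feeding defect of its mutant, had 58.6 ± 1.71 CPM in 12xWT and 55.8 ± 1.53 CPM in yw, with a log2 fold change of 0.05 (SE 0.03, adjusted p = 0.175 by edgeR with Benjamini-Hochberg adjustment). The gene dpr21 (CG42596, chromosome 2R, 3066499 to 3191011) changed more than any of the 33 members. It had 19.6 to 26.02 CPM in 12xWT, against 39.3, 40.7, 39.4 and 40.1 CPM in yw, so that the genotypes were far apart. Its fitted log2 fold change was -0.89 (SE 0.05, adjusted p = 1.91e-07 by edgeR with Benjamini-Hochberg adjustment), and -0.97 without the libraries labelled 12xWT female.

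Other recognition and guidance genes were counted on 3 lists. Of 14 relatives and binding partners of the Dpr and Beat proteins, 4 were higher and 2 lower in 12xWT, with a median log2 fold change of 0.04. Leaving out single libraries or the libraries labelled 12xWT female lowered the 4 to as few as 2. Without the latter 21.4% of the list was called, against 19.5% of all tested genes. Fits without a single library called 1410 to 1879 of all tested genes higher, against 1890 with all libraries. The called genes include Side relatives, given here as log2 fold changes. Of these, side-III (0.13) and side-VI (0.11), the partner of the Beat-V proteins, were higher and side-VIII (-0.14) was lower. None of the 3 was called without the libraries labelled 12xWT female. The immunoglobulin proteins Ama (0.28) and Lac (0.28), a septate junction protein, were higher, and wrapper (-0.43), a glial protein, was lower. Ama shares exon sequence with CR45593. Side-IV, which binds Beat-IIa and Beat-IIb, had a log2 fold change of 0.04 (SE 0.03), and Side-II, which binds Beat-VI, of 0.10 (SE 0.04), neither called. The gene of Side-IV shares 17.5% of its exon bases with CR17025.

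Of 35 other guidance and adhesion receptors, 3 were higher and 11 lower, with a median of -0.06, where 17.0% of all tested genes were higher and 16.4% lower. The higher ones were kirre (0.70), Fas3 (0.32) and Fas2 (0.23), all adhesion molecules, and the lower ones with the largest changes were Dscam2 (-0.49), Toll-6 (-0.25) and ed (-0.19). The overlap of ed with CR44984 makes its value less certain. Without the libraries labelled 12xWT female 3 were higher and 3 lower (17.1%, against 19.5% of all tested genes). Without single libraries as few as 6 were lower. Over all tested genes such fits called 1276 to 1756 lower, against 1832 with all libraries. Of 7 guidance ligands, Sema2b (0.17) was higher, and NetA (-0.23) and Wnt5 (-0.20) were lower. The same 3 passed without the libraries labelled 12xWT female (42.9% of the list, against 19.5% of all tested genes). Both the share of members called (42.4%) and the shares on these lists (42.9%, 40.0% and 42.9%) can be set beside the 33.4% of all tested genes.

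The authors' deposited table of yw over 12xWT lists 33 of the members and gives each the sign found here once turned round. It comes from the same libraries, so shared signs and calls are close to fixed in advance. An adjusted p under 0.05 was given in the authors' deposited table for 12 members, all among the 14 called here, and dpr5 (0.181) and dpr4 (0.0928) did not.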

How the data were processed

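Per the file headers, the authors ran featureCounts 2.0.1 on read pairs over exons without a strand option, and deposited whole-number counts with dm6 coordinates. The submitters' processing notes also name STAR 2.7.7a, SAMtools 1.9 and DESeq2 1.34.0. A second deposited table holds the authors' log2 fold changes with standard errors, a mean normalized count per gene (signal), and p-values; it was used for comparison alone. Members and lists were chosen with earlier results of these data known. Full values are given for members called, the 3 with the smallest interaction p, and the highest and lowest of each family.

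Counts were tested with edgeR 4.0.16 in R 4.3.3: filterByExpr over the 4 groups (11146 genes kept), TMM factors (0.985 to 1.02), robust quasi-likelihood test, Benjamini-Hochberg adjustment over all genes, threshold 0.05. Genotype and sex effects came from a model with both terms, effects within a sex or genotype and the interaction from a fit of 4 group means, all over the 10 libraries. CPM uses library totals without TMM; RPKM divides by exon length. DESeq2 1.42.0 was an alternative, as were other scalings, no filter, a replicate block, a 2-fold requirement and leaving out libraries. The tests were tried on simulated data first. All 34 members matched a FlyBase identifier. Replicate libraries differed beyond the noise of sampling (chi-square per degree of freedom 9.5 to 29.4), but nothing says they came from separate crosses, so p-values measure the spread between these libraries alone.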

Additional observations from a re-analysis of the deposited data

Results flagged for a closer look

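In 3 of the 66 groups of libraries examined (33 genes in 12xWT and in yw), a single library stood apart from the rest of its genotype by Dixon's criterion, which chance meets in about 1 in 20 groups. The level of beat-Ic was 49.3 CPM in the third 12xWT female library, where the remaining 12xWT libraries had 45.0 to 46.1 CPM. The level of beat-IIIc was 62.9 CPM in the second 12xWT male library, where the rest of 12xWT had 66.9 to 69.0 CPM. The level of beat-Vc was 21.7 CPM in the first yw male library, against 18.8 to 19.2 CPM in the other yw libraries. None of the 3 genes was called in the genotype or the sex effect, and each value was above or below the rest by a few CPM at most.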

How the results depend on the processing

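No fold change of a called member changed sign under any setting tried. With all libraries 6 members were called higher and 8 lower in 12xWT. With library size alone in place of TMM, which moved the median of all genes by 0.02, there were 6 higher and 5 lower, and in females 0 lower. Over all 11146 tested genes it gave 2112 higher and 1338 lower, against 1890 and 1832 with TMM. In females it gave 471 lower, against 621 with TMM. The replicate numbers in the titles did not pair the libraries (correlations of same-numbered libraries -0.17 to 0.10). With the replicate block 5 were higher and 5 lower, 1 and 0 in females and 1 and 3 in males. Leaving out the libraries labelled 12xWT female, chosen after seeing the data, gave 2 higher and 5 lower, and 0 lower by sex. Over all 10970 tested genes it gave 1125 higher and 1014 lower, and 31 higher and 18 lower by sex. Genotype is then compared in males alone and sex in yw alone. Requiring a 2-fold change left 0 in every comparison. Leaving out single libraries gave 5 to 7 higher and 4 to 7 lower in the genotype effect, 1 to 3 and 0 to 1 in females, 0 to 3 and 1 to 5 in males, 0 to 1 lower in males than in females, and 0 for the interaction. Calls of dpr3, beat-Ia, beat-VII and dpr14, 4 of the 14, were kept in every setting other than the 2-fold requirement, and 9 in every fit without a single library. The cause of the other losses was not tested. The neighbour ratios that differed had adjusted exact permutation p between 0.0444 and 0.0889 without single libraries, where fewer regroupings exist. Within a sex only 3 libraries meet 2, and the results rest on a single stock of each genotype.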
